A study of Mus musculus with 6 samples.

Results

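The long noncoding host genes of small nucleolar RNAs (snoRNAs) were followed after knockdown of the long noncoding RNA Malat1 in HL-1 cells, a line derived from mouse atrial cardiomyocytes. The genes were taken by name from the deposited table of normalized counts, and all 10 that were listed had a row there: Gas5, Snhg1, Snhg3, Snhg5, Snhg6, Snhg8, Snhg12, Snhg15, Snhg17, and Snhg20, among 21269 genes in all. Cells were transfected with 50 nM of an LNA gapmer 24 hours after seeding and harvested 48 hours later. The control group received the gapmer named LNA Control and the knockdown group the gapmer named LNA Malat1, with 3 libraries of total RNA per group. Gapmers are antisense oligonucleotides, with DNA in the middle and locked nucleic acid at the ends, that recruit RNase H to the transcript they pair with. Both groups were of the same single cell line, and both were transfected.

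Most snoRNAs of mammals are cut out of the introns of longer transcripts. After splicing, the intron is opened and trimmed down to the snoRNA, which guides the chemical modification of ribosomal RNA or small nuclear RNA. Box C/D snoRNAs guide 2'-O-methylation and box H/ACA snoRNAs guide pseudouridylation. Some hosts are mRNAs, and others, such as those described here, yield a spliced RNA with little coding potential. Many of these spliced RNAs start with a run of pyrimidines, as the mRNAs of ribosomal proteins do, and are degraded by nonsense-mediated decay in the cytoplasm. A gene level from RNA sequencing reads the host RNA over its annotated exons, which can differ from the level of the snoRNA it carried. In Snhg1, Snhg8, and Snhg12, the exons of all annotated transcripts together fill the whole span of the gene. Reads of unspliced RNA are therefore counted there as well.

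Malat1, the target of the gapmer, had normalized counts of 5051, 5197, and 4369 in the LNA Control libraries and of 2833, 2792, and 2732 in the LNA Malat1 libraries. A mean of 57.2% of the control level remained, so the knockdown was partial (log2 fold change -0.80, adjusted p = 7.46e-06 in limma). The libraries held between 4512277 and 5592272 reads on genes, as estimated from the rounding of the normalized counts. LNA Malat1 replicates 1 and 3 differed by less than the sampling noise (chi-square of 0.949 per gene) and were counted as 1 sample in each mean ± SD, so that n is 2 in LNA Malat1. Of 12 cardiomyocyte markers 10 were measured, among them Tnnt2 at 647 to 746 and Ryr2 at 2237 to 2706 over the 6 libraries. Myl7 was only at 18 to 32 and Myh6 at 0 to 7, and Nppa and Sln were not analysed here. Of the fibroblast markers, Col1a1 was at 1794 to 2486, whereas Col1a2 was at 0 to 1, and Dcn, Lum, and Tcf21 were not analysed here.

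Of the 10 host genes, 1 rose and 0 fell in LNA Malat1. The gene that rose was Snhg15, and its 1.41-fold change stayed below the 1.5-fold minimum, so that 0 of 10 were called with that minimum. The limma model was fitted across 15650 genes, and a gene passed where its adjusted p was no higher than 0.05. Of these genes 28.3% passed, and of all genes tested 14.3% rose and 14.0% fell. With a fold change of 1.5 or more, 10.9% passed (8.0% higher, 2.92% lower). Among the 6018 genes in the same range of mean normalized counts as the hosts, 33.0% passed. With the 1.5-fold minimum it was 6.35% of these 6018 (166 higher, 216 lower). At an unadjusted p under 0.05, limma gave 1 host higher and 2 lower, and limma's voom on the recovered reads gave 1 that rose and 0 that fell. The share of hosts that passed was thus not above the background. The median log2 fold change of the 10 hosts was -0.05, beside 0.02 over all genes tested. Summed over the 10 hosts, the normalized counts were 2520, 2582, and 2468 among the controls against 2578, 2544, and 2389 after knockdown, so the groups overlapped.

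**Figure D1:**
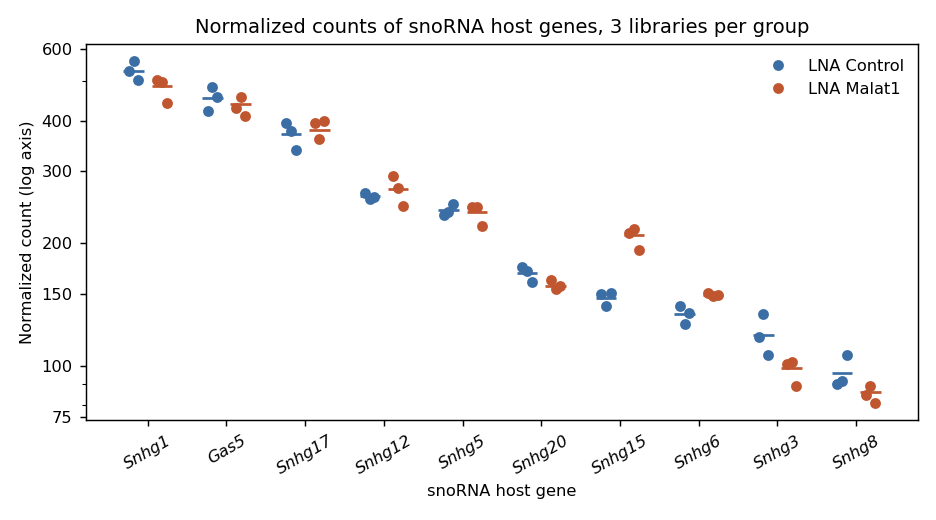
Normalized counts (log axis) of the 10 snoRNA host genes, ordered by their mean in LNA Control. Each point is 1 library and each line the group mean, with LNA Malat1 replicates 1 and 3 averaged first; for Snhg15, the LNA Malat1 libraries lie at 193 to 217 and the LNA Control libraries at 140 to 151.

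The groups did not overlap for 4 of the 10 hosts, beside 41.3% of all genes tested. Snhg15 and Snhg6 were higher in every LNA Malat1 library, and Snhg3 and Snhg8 were lower in every one. Because the libraries of a group may come from 1 culture, the p-values measure the spread between these libraries, which may be technical. In RNA from whole cultures, fewer cells that express a gene and less RNA per cell cannot be told apart.

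Levels of different hosts were compared per kilobase of annotated exon. By all annotated exons, Snhg1 was highest in LNA Control at a mean of 179 normalized counts per kilobase. Snhg5 followed at 139, and their ranges did not overlap. Snhg3, Gas5, Snhg6, Snhg8, Snhg12, and Snhg15 then lay between 121 and 108, and each overlapped its neighbour in this order in the range of its 3 libraries. Snhg20 at 60.5 and Snhg17 at 52.5 were lower, and neither range overlapped that of the neighbour above. These levels rest on the full exonic length, while reads shared with other genes were not counted. That length is unlike between hosts. It covers 7052 of the 7881 bases of the span of Snhg17 and 2795 of 2948 in Snhg20, so it includes most introns. In Snhg5 it covers 1730 of 28295 bases and in Snhg15 1359 of 3189. The order thus depends on the annotation, and an order by spliced length was not tested. For Snhg3, only 135 of 986 exonic bases are free of the exons of other genes, and its level per kilobase of those bases was 884. By that shorter length Snhg3, not Snhg1, was the highest host in LNA Control. Snhg1 was then at 226, Snhg5 at 152, and Gas5 at 147.

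Snhg15 (chromosome 11, 6525591 to 6528779, minus strand, mm10) hosts a single snoRNA, the box H/ACA RNA Snora9. The spliced Snhg15 RNA is known as a short-lived transcript. Its normalized counts were 150, 140, and 151 in the 3 control libraries and 212, 217, and 193 in the knockdown libraries. Every LNA Malat1 library was above every LNA Control library. The means were 147 ± 6.08 (SD, n = 3) and 209.8 ± 10.3 (SD, n = 2). The log2 fold change was 0.49 with a standard error of 0.077, which is a fold change of 1.41 with a 95% interval of 1.25 to 1.58 (adjusted p = 0.000528 in limma). It passed in all 16 alternative analyses, with log2 fold changes of 0.46 to 0.54 and limma adjusted p-values of 0.000226 to 0.00637.

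A ratio within each library does not depend on the scaling between libraries. The ratio of Snhg15 to Gas5 was 0.355, 0.289, and 0.330 among the controls against 0.493, 0.476, and 0.470 after knockdown. Relative to the sum of the other 9 hosts, Snhg15 was at 0.0573 to 0.0652 in the controls and at 0.0879 to 0.0933 after knockdown. The groups did not overlap in either ratio, which is given as a description with no test. The sum of the other 9 hosts was 2370, 2442, and 2317 in the 3 control libraries and 2366, 2327, and 2196 in the knockdown libraries, so that sum overlapped between the groups.

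**Figure D2:**
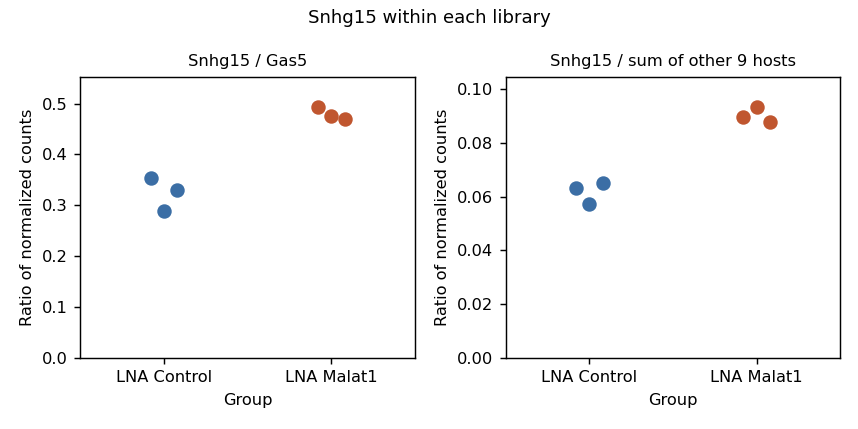
Ratio of the normalized count of Snhg15 to that of Gas5 (left) and to the sum of the other 9 hosts (right), with 1 point per library and axes from 0. Against Gas5, the LNA Malat1 libraries lie at 0.470 to 0.493 and the LNA Control libraries at 0.289 to 0.355.

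Because Snhg15 was the host that rose, its promoter and its snoRNA are shown. The promoter window holds 250 bases before and 50 after the start site in RefSeq (chr11:6528711-6529010, GRCm38.p6, minus strand), and the capitals mark the palindromes TGACGTCA, the cyclic AMP response element, and CACGTG, an E-box. TGACGTCA begins 88 bases before the start and CACGTG begins at base 12, counting the start as base 1, and the motifs do not overlap. Both motifs were chosen after the sequence was seen, and as palindromes they read the same on both strands.
Snhg15 promoter: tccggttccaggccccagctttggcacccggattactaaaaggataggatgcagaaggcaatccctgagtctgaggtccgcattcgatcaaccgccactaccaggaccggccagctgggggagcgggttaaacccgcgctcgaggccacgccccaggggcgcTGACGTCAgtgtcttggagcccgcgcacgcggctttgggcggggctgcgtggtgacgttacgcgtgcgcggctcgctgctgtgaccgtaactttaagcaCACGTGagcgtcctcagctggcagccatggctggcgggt
Snora9: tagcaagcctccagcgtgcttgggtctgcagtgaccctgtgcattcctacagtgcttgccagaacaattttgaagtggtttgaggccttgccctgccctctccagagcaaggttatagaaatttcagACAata

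In Snora9 (GENCODE M21, GRCm38, chr11:6528033-6528165, minus strand) the capitals mark the ACA near the 3′ end that gives the H/ACA class its name. Of all 32851 mouse promoter windows in RefSeq, 7.15% hold CACGTG, 1.79% hold TGACGTCA, and 0.17% hold both. Of the 9 hosts with such a window, Snhg15 alone holds CACGTG, and Snhg15 and Gas5 hold TGACGTCA. These matches describe the letters of the window and no binding was measured.

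Gas5 and Snhg1 carry the most snoRNAs. Gas5 (chromosome 1, 161034422 to 161038539, plus strand), named for its accumulation in growth-arrested cells, spans 10 annotated snoRNA genes. Its normalized counts were 423, 484, and 458 among the controls against 430, 456, and 411 after knockdown. The groups overlapped, with a log2 fold change of -0.07 and a 95% interval of -0.21 to 0.07 (adjusted p = 0.43 in limma). Snord47, a box C/D snoRNA of Gas5 (GENCODE M21, chr1:161038082-161038158, plus strand), shows the structure of the class, with the C box and the D box in capitals.
Snord47: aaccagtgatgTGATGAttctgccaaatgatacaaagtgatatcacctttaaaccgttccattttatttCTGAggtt

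Zbtb37, a zinc finger gene on the opposite strand, overlaps the 5′ end of Gas5, with annotated starts 427 bases apart. Zbtb37 rose (log2 fold change 0.51, adjusted p = 0.00123 in limma), with normalized counts of 381, 376, and 497 in the 3 control libraries and of 564, 601, and 612 in the knockdown libraries. Among the controls, replicate 3 was the nearest to LNA Malat1. The difference between the genes of this divergent pair was not tested. Whether the counting used strand is not given in the sources used here. Without it, reads of Gas5 and Zbtb37 cannot be told apart where their exons overlap, although reads on several genes were left out.

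Snhg1 (chromosome 19, 8723475 to 8726443, plus strand) spans 8 annotated snoRNA genes, among them Snord22. Its normalized counts were 529, 560, and 503 among the controls against 504, 498, and 443 after knockdown. The highest LNA Malat1 library lay just above the lowest LNA Control library. The log2 fold change was -0.14, with an unadjusted p of 0.0493 and a limma adjusted p of 0.124. Slc3a2, which encodes the heavy chain of amino acid transporters, starts 106 bases away on the opposite strand and had a log2 fold change of -0.05 (adjusted p = 0.522 in limma). The ratio of Snhg1 to Slc3a2 was 0.494, 0.547, and 0.514 in the 3 control libraries and 0.4995, 0.496, and 0.465 in the knockdown libraries, so the groups overlapped.

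Snhg3 (chromosome 4, 132348014 to 132353686, minus strand) had the lowest fold change of the 10 hosts. It carries Snora73a and Snora73b, the copies of U17, a box H/ACA RNA that serves the cleavage of the ribosomal RNA precursor rather than its modification. Normalized counts were 118, 134, and 106 among the controls against 101, 102, and 89 after knockdown. Every LNA Malat1 library was below the lowest LNA Control library, by as little as 106 against 102. The log2 fold change was -0.29, with a 95% interval of -0.53 to -0.05 and a limma adjusted p of 0.0679, so Snhg3 did not pass. Without LNA Control replicate 3 it passed (log2 fold change -0.37, adjusted p = 0.0275 in limma).

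Snhg3 overlaps Rcc1, which encodes the nucleotide exchange factor of the GTPase Ran and starts 81 bases away on the same strand. Rcc1 had a log2 fold change of -0.07 (adjusted p = 0.485 in limma). The ratio of Snhg3 to Rcc1 was 0.322, 0.323, and 0.298 in the 3 control libraries and 0.279, 0.281, and 0.247 in the knockdown libraries. The groups did not overlap in this ratio, which was not tested. Gm17300, on the opposite strand, was at 5 to 17 normalized counts over the 6 libraries (adjusted p = 0.497 in limma).

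The other hosts carry between 1 and 5 snoRNA annotations each, and none of them passed in limma. Snhg6 (chromosome 1, 9941959 to 9944118, minus strand) had normalized counts of 140, 127, and 135 among the controls against 151, 148, and 149 after knockdown. The groups did not overlap, but the log2 fold change of 0.16 (95% interval -0.02 to 0.33) did not pass (adjusted p = 0.165 in limma). Snhg8 (chromosome 3, 123507552 to 123508404, minus strand), the host of Snora24, was at 90, 92, and 106 in the 3 control libraries and at 85, 89, and 81 in the knockdown libraries. It was lower in every LNA Malat1 library by as little as 90 against 89, with a log2 fold change of -0.17 (95% interval -0.40 to 0.06, adjusted p = 0.259 in limma).

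Snhg12 (chromosome 4, 132308623 to 132311024, plus strand), which carries snoRNAs of both classes, was at 266, 257, and 260 among the controls against 293, 274, and 247 after knockdown. The LNA Malat1 libraries lay on both sides of the controls, and the log2 fold change was 0.05 (adjusted p = 0.618 in limma). Without LNA Malat1 replicate 1 it was -0.0045. Snhg5 (chromosome 9, 88495268 to 88523562, minus strand), the host of Snord50a and Snord50b, was at 234 to 250 in the controls and at 221 to 245 after knockdown. Its log2 fold change of -0.03 (95% interval -0.17 to 0.12) was nearest to 0 among the hosts (adjusted p = 0.816 in limma), and it turned positive with quantile normalization (0.02) or without LNA Malat1 replicate 3 (0.0242).

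Snhg17 (chromosome 2, 158353700 to 158361580, minus strand) had the longest exonic length of the hosts, 7052 bases, and the groups overlapped at 338 to 395 and 361 to 398 normalized counts (log2 fold change 0.06, adjusted p = 0.579 in limma). Without LNA Control replicate 3 the log2 fold change of Snhg17 was -0.0079. Snhg20 (chromosome 11, 117076008 to 117078955, plus strand) was at 161 to 175 in the controls and at 154 to 162 after knockdown, which met in a narrow overlap (log2 fold change -0.10, adjusted p = 0.351 in limma). For the 9 hosts that did not pass, the 95% intervals together reached from 0.695-fold (Snhg3) to 1.26-fold (Snhg6). Each host had between 83 and 582 recovered reads per library. For Snhg8, the host with the fewest, counting alone gives a coefficient of variation of 10.2% in LNA Control, beside 9.08% measured.

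**Figure D3:**
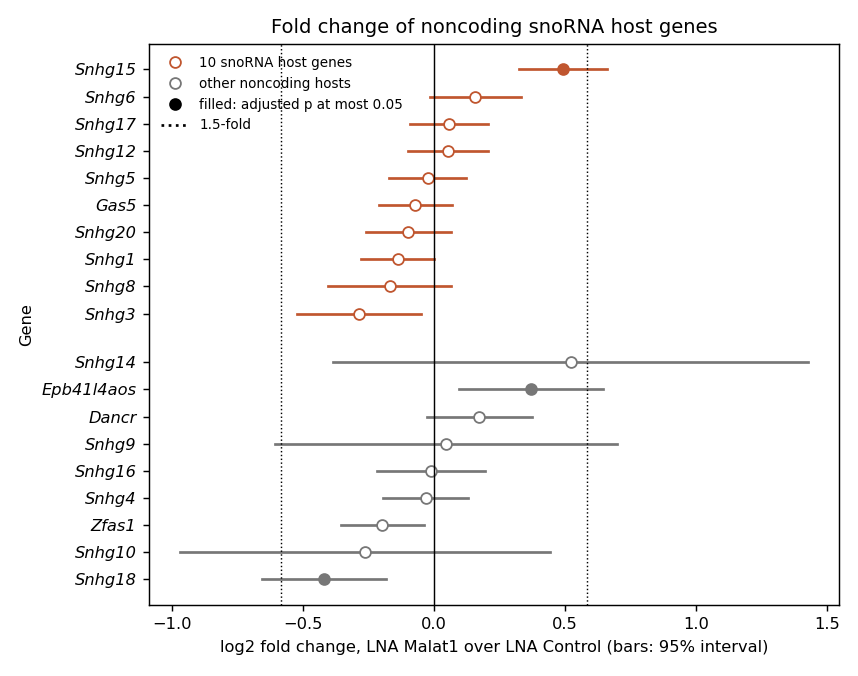
Log2 fold change (LNA Malat1 over LNA Control) with its 95% interval from limma for the 10 snoRNA host genes and 9 other noncoding hosts that were tested. Filled points passed the adjusted p of 0.05, and the dotted lines mark 1.5-fold; Snhg15 at 0.49, Epb41l4aos at 0.37, and Snhg18 at -0.42 are filled.

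To see what the start sites of the hosts share, the 10 bases before and 20 bases from the RefSeq start were examined. A run of at least 5 pyrimidines covering the start base was found in 4 of the 11 windows of 9 hosts, beside 10.14% of all promoter windows. This rule is looser than the pattern of 5′ TOP mRNAs, because it does not ask for a C at the start base. That base is C in Gas5 and Snhg8 and T in Snhg12 and Snhg17. The 4 windows belong to 4 hosts. The start windows of these hosts are shown with the run in capitals, and that of Snhg15, which has no such run, in lower case.
Gas5: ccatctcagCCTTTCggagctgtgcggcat
Snhg8: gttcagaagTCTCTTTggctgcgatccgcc
Snhg12: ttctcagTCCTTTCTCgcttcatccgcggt
Snhg17: aagaccacagTTTCCTgtcgcgtggatgtg
Snhg15: ctgtgaccgtaactttaagcacacgtgagc

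For Gas5 and Snhg17 the window is that of the second RefSeq start. The 4 hosts with a run had log2 fold changes of -0.07, -0.17, 0.05, and 0.06 in the order shown, and none of them passed in limma. Snhg6 had no promoter window and was not examined.

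The snoRNAs themselves were mostly outside the reach of the table. GENCODE M21 places 34 snoRNA annotations within the 10 hosts, some of them overlapping copies, and 2 of these were analysed. The other 32 all overlap an annotated exon of their host, and reads on several genes were left out of the counts. By their letters, 17 of the 34 hold a C box and a D box, 11 hold ACA near the 3′ end, and 6 hold neither pattern. The 2 that were analysed, Snora73b in Snhg3 (chr4:132352322-132352526, minus strand) and Snord87 in Snhg6 (chr1:9942463-9942549, minus strand), overlap no annotated exon of their host and are printed with their boxes in capitals.
Snora73b: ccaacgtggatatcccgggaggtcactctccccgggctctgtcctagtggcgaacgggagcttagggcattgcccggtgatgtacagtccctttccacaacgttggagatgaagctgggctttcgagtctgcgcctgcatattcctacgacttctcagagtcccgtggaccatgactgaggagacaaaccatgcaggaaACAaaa
Snord87: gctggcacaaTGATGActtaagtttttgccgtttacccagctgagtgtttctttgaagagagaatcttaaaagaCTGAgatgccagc

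Snora73b had normalized counts of 15, 21, and 27 in the 3 control libraries and of 21, 15, and 13 in the knockdown libraries, and the groups overlapped (adjusted p = 0.404 in limma). Snord87 was at 7 to 9 in the controls and at 7 to 11 after knockdown (adjusted p = 0.874 in limma). The 95% intervals were wide at this depth, from 0.521-fold to 1.21-fold for Snora73b and from 0.637-fold to 1.77-fold for Snord87, and smaller differences were not detectable. The table held 63 snoRNA and scaRNA genes with names that start with Snor or Scarna, and snoRNA genes named otherwise were not listed. Of the 63, 42 were tested and 0 passed in limma, beside 28.3% of all genes tested, and with quantile normalization 3 fell. Their mean normalized counts were only 5.33 to 108.5, so the share over all genes is not a like comparison. At an unadjusted p under 0.05, 1 was lower and 0 were higher, and voom gave 1 that fell. Their median log2 fold change was -0.03. The most abundant was Scarna2, at 109, 125, and 112 among the controls against 101, 107, and 97 after knockdown (adjusted p = 0.189 in limma). Whether these reads came from mature snoRNAs or from unspliced host transcripts was not tested. The paper isolated RNA with RNeasy mini kits, and how much RNA as short as snoRNAs was kept was not tested.

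Another 12 noncoding hosts were listed for comparison, of which 11 were in the table and 9 were tested. Of these, 1 rose and 1 fell in limma, a share of 22.2% beside 28.3% of all genes tested, with a median log2 fold change of -0.01. With quantile normalization 0 rose and 1 fell. Without LNA Malat1 replicate 1, 0 of them passed. Snhg18 fell (log2 fold change -0.42, adjusted p = 0.0127 in limma), with normalized counts of 121, 97, and 111 in the 3 control libraries and 78, 81, and 85 in the knockdown libraries. Epb41l4aos rose by 0.37 (adjusted p = 0.0454 in limma), with 62, 55, and 54 among the controls against 81, 71, and 70 after knockdown, and it passed in 7 of 16 alternative analyses. Snhg4, the most abundant of this list, had a log2 fold change of -0.03 (adjusted p = 0.773 in limma). A second row of Snhg4, annotated as coding, was left out.

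Protein-coding genes whose span holds an annotated snoRNA or scaRNA were taken from the annotation, which does not show whether the snoRNA is made. Of 242 such genes, 229 were tested, 19 rose and 31 fell in limma, and their median log2 fold change was -0.05. The share that passed was 21.8%, beside 28.3% of all genes tested. With quantile normalization the balance turned, with 28 that rose and 24 that fell. The count of 50 that passed was 26 without LNA Malat1 replicate 1 and 33 without LNA Malat1 replicate 2 or LNA Control replicate 2. Past 1.5-fold, 3.06% passed, beside 10.9% of all genes tested (8.0% higher, 2.92% lower). Among the 6018 genes in the count range of the 10 noncoding hosts, that share was 6.35% (166 higher, 216 lower). Of the coding hosts, 4 fell past 1.5-fold. These were Fars2, the mitochondrial phenylalanyl-tRNA synthetase (log2 fold change -1.08), Rabif, a chaperone of Rab GTPases (-0.98), Maged2 (-0.63), and Sash1 (-0.62). Fars2 was at 228, 248, and 250 in the 3 control libraries and at 111, 118, and 112 in the knockdown libraries, so the groups were far apart. Past 1.5-fold, 3 rose, namely Piwil2, Tex14, and Lrrc28, with log2 fold changes of 1.61, 1.01, and 0.65. Piwil2 and Tex14, known for their roles in germ cells, had few reads, at 2 to 5 and 9 to 10 normalized counts in LNA Control and at 12 to 13 and 18 to 24 in LNA Malat1. Top2a, the most abundant of these hosts, had a log2 fold change of -0.06.

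The proteins that bind and assemble snoRNAs were examined next. Of 18 genes of the snoRNP core and its assembly, 0 rose and 1 fell in limma, a share of 5.56% beside 28.3% of all genes tested, with 2 lower and 0 higher at an unadjusted p under 0.05, and voom gave 0 that rose and 1 that fell. The gene that fell was Ruvbl2, an ATPase of the R2TP assembly complex (log2 fold change -0.26, adjusted p = 0.0145 in limma), and it passed in 13 of 16 alternative analyses, but not without LNA Control replicate 2, LNA Malat1 replicate 2, or LNA Malat1 replicate 3. Nop58, a core protein of box C/D particles and the most abundant of the list, had 1137 to 1261 normalized counts in the controls and 1147 to 1184 after knockdown. The median of the list was -0.03 on the log2 scale.

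Nonsense-mediated decay degrades several spliced host RNAs. Of 19 genes of this pathway, 2 rose and 4 fell in limma, a share of 31.6% beside 28.3% of all genes tested, and with quantile normalization 4 rose and 4 fell. Casc3, a component of the exon junction complex, was at 528, 510, and 491 among the controls against 330, 309, and 292 after knockdown (log2 fold change -0.72, adjusted p = 5.11e-06 in limma). Smg9, a cofactor of the kinase Smg1 that phosphorylates Upf1, was at 102, 109, and 123 in the 3 control libraries and at 52, 61, and 66 in the knockdown libraries (log2 fold change -0.89, adjusted p = 0.000227 in limma). In both genes the groups were far apart, and both passed in all 16 alternative analyses. Nbas (log2 fold change -0.36, adjusted p = 0.000154 in limma) and Smg6 (-0.28, adjusted p = 0.00343 in limma) fell as well. They too passed in all 16. Upf3b, an adaptor between the exon junction complex and Upf1, rose from 519, 544, and 555 to 703, 659, and 645 (log2 fold change 0.31, adjusted p = 0.00121 in limma). Upf2 rose by 0.50 (adjusted p = 0.0116 in limma), with its controls widely spread at 620, 867, and 1015 beside 1170, 1143, and 1151 after knockdown, and it passed in 12 of 16 alternative analyses. Without LNA Malat1 replicate 1 or 3 it did not pass (adjusted p = 0.059 and 0.0566 in limma). Smg1, the most abundant of the list, had a log2 fold change of 0.12 (adjusted p = 0.176 in limma), while Upf1, the central helicase, had 0.08 (adjusted p = 0.362 in limma).

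The snoRNAs of host genes serve the production of ribosomes. Of 20 genes of RNA polymerase I and ribosomal RNA processing, 1 rose and 4 fell in limma, a share of 25% beside 28.3% of all genes tested. Without LNA Malat1 replicate 3 a total of 3 passed, and with quantile normalization 3 rose and 3 fell. Taf1b fell by 0.46, Polr1c by 0.38, Nob1 by 0.33, and Ubtf by 0.15 on the log2 scale, whereas Taf1c rose by 0.42. Taf1b and Taf1c are subunits of the same promoter selectivity factor. Nucleolin (Ncl), the most abundant, had a log2 fold change of -0.02. Of 17 genes of the mTOR pathway and of 5′ TOP regulation, 1 rose and 3 fell, a share of 23.5% beside 28.3%. Without LNA Malat1 replicate 2 or 3, 1 of them passed, and with quantile normalization 2 rose and 1 fell. Rptor, the scaffold of mTOR complex 1 and one of the coding hosts above, fell by 0.50 (adjusted p = 0.000326 in limma), and Rictor, the scaffold of complex 2, rose by 0.23. Larp1, which binds the 5′ TOP sequence, was the most abundant and had a log2 fold change of -0.10 (adjusted p = 0.338 in limma). Median log2 fold changes were -0.03 and 0.02 for these lists.

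**Figure D4:**
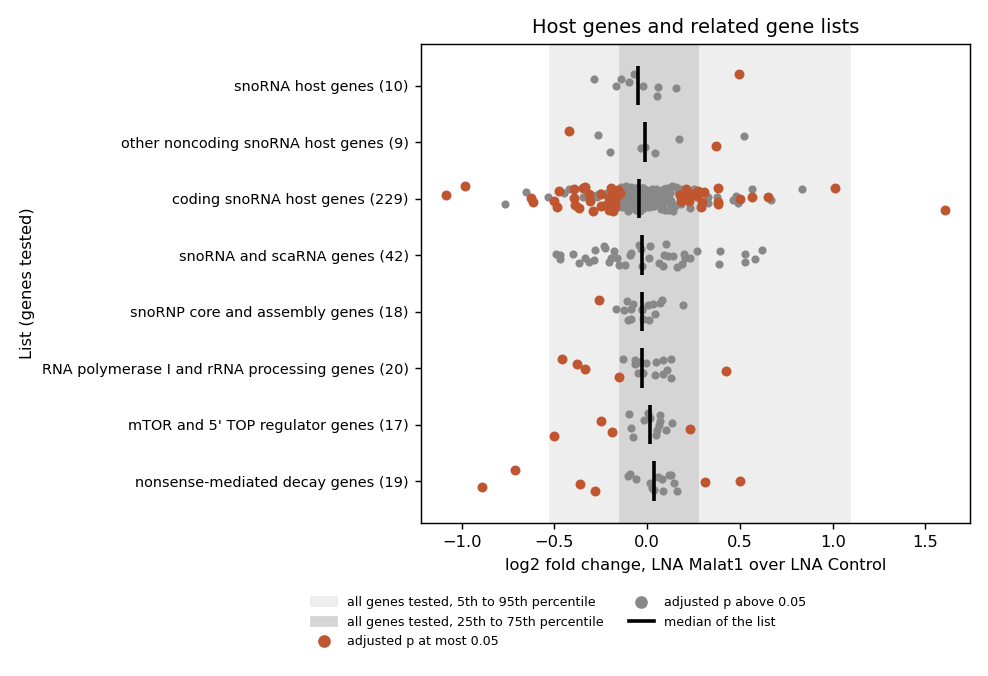
Log2 fold change (LNA Malat1 over LNA Control) of each tested gene in 8 lists, with the number tested in brackets, the median of each list as a black line, and the spread of all 15650 genes as grey bands. The points are shifted vertically at random to separate them; medians lie between -0.05 and 0.04.

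Marker genes of several cell types were summed in each library. The 4 fibroblast markers measured of 7 summed to 4329 to 5079 in the controls and to 3845 to 4017 after knockdown. The 2 leukocyte markers measured of 6, Csf1r and Cd68, summed to 32 to 36 and to 54 to 81, and the 2 endothelial markers measured of 5 to 19 to 28 and to 32 to 35. The 4 smooth muscle markers summed to 1512 to 1678 and to 1553 to 1701, mostly Acta2, so the sums overlapped. Of the 4, Cnn1 rose, from 106 to 116 in the controls to 148 to 149 (adjusted p = 0.00355 in limma). Tagln was higher and Myh11 lower in every LNA Malat1 library, but neither passed. The 10 cardiomyocyte markers summed to 14020 to 17779 and to 20176 to 21553, mostly titin (Ttn). Without Ttn, the sums of the other 9 went the other way, at 5417 to 5669 and at 5064 to 5233. Of the 9 cardiomyocyte markers tested, Ttn and Tnnt2 rose and Des, Gata4, and Tbx5 fell in limma. Their part in the values of Snhg15 was not tested.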

How the data were processed

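Total RNA of HL-1 cells was sequenced in 6 libraries, 3 per group. The authors used Trimmomatic 0.39 for trimming, STAR 2.7.7a for alignment (mm10), featureCounts 1.6.5 for counts per gene, from which reads on several genes or places were left out, and DESeq2 1.30.0. What they deposited is a score, the count of a gene divided by its library's factor and rounded, called the normalized count here.

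Genes with a mean of at least 5 (15650 of 21269) entered a two-sided limma test (version 3.58.1, R 4.3.3) of log2(normalized count + 1), using lmFit and eBayes with a trend and Benjamini-Hochberg adjustment across these genes. Fold changes are on that scale. The script was tested on simulated data. Each factor was estimated by likelihood from the uneven use of whole numbers that rounding leaves. Skipped numbers were seen only in LNA Control replicates 1 and 2. The gain in log likelihood over a factor of 1 was smallest in LNA Malat1 replicate 2, at 8.4. Reads on genes, which are estimates, were 4512277, 4532014, and 5592272 for the controls and 4986245, 4789066, and 5301333 after knockdown. Chi-square values cover counting error only. That of LNA Malat1 replicates 1 and 2 was 1.01 per gene, also near sampling noise, but 1.665 over the 1612 genes with at least 1600 reads. The limma fit kept all 6 libraries separate, with 1 variance per gene for both groups.

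The host genes and all gene lists were chosen with earlier results of these data known. Named genes are Malat1, the 10 hosts, genes that overlap a host or start within 2000 bases of it, list members past 1.5-fold, the most abundant member of each list, and snoRNA genes within a host. The genes whose pattern is most like that of Snhg1 were also named by this rule and are not reported here. Other names were chosen after their values were seen. Positions are those of the authors' table, for Snhg5 and Snhg15 different from GENCODE M21. Exons and snoRNA sequences are from GENCODE M21 and promoters from RefSeq (GRCm38.p6), which matched 9 of 10 hosts. Of 21269 genes, 21224 were found in GENCODE M21. Alternatives were other pseudocounts (0.1 and 5), scalings, filters, fold minimums, voom, the replicate block, replicates 1 and 3 of LNA Malat1 as 1 sample, and leaving out each library. Alternatives for the snoRNA, mTOR, and polymerase I lists and for named genes outside the 10 hosts were added after seeing the data.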

Additional observations from a re-analysis of the deposited data

How the results depend on the processing

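Over all genes, 1709 were called (1252 higher, 457 lower). A mean of at least 50 gave 666 (317 higher, 349 lower), a 2-fold minimum 841, a test against 1.5-fold 291, and no fold minimum 4426. Quantile normalization gave 1466 with a more even split (748 higher, 718 lower). Leaving out each library gave 1222 to 2015.

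Of the 10 hosts, 1 or 2 passed when each library was left out, the second being Snhg3 without LNA Control replicate 3. With the fold minimum 0 were called, and 1 without it. Leaving out each library gave 0 to 2 of the other noncoding hosts, 26 to 74 of the coding hosts (50 with all libraries), 0 to 2 snoRNP genes, 1 to 5 mTOR genes (4 with all libraries), 3 to 5 polymerase I genes, and 0 to 1 snoRNA genes. The lowest count came without LNA Malat1 replicate 1 for the noncoding and coding hosts, and without replicate 2 or 3 of that group for the mTOR genes. Quantile normalization gave 1 other noncoding host and 3 snoRNA genes that fell, and it turned or evened the balance of rises and falls in the coding hosts and in the polymerase I, mTOR, and decay genes, as given above.

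Reversed signs occurred only in genes that did not pass. Snhg5 was at 0.02 with quantile normalization and 0.0114 with equal totals, and Slc3a2 at 0.0074 with quantile normalization. When each library was left out, Snhg5 lay between -0.0499 and 0.0242, Snhg12 between -0.0045 and 0.1182, Snhg17 between -0.0079 and 0.1042, and Rcc1 between -0.1095 and 0.0008. The cause was not tested.

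The replicate numbers are not known to pair the libraries. Deviations from the group means of same-numbered libraries correlated at 0.0858, 0.182, and 0.083 over 10490 genes, and each library correlated best with its own number, which is a hint from the data. Under the replicate block, 1739 genes were called, 2 of the 10 hosts passed (Snhg15, and Snhg3 with a limma adjusted p of 0.0466), and 2 snoRNP genes fell.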
